A study of Bos taurus and Bubalus bubalis with 9 samples.

Results

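The back-splice junctions of UBE2D1, UBE3A and RNF111 were described in skeletal muscle and adipose tissue. A circular RNA (circRNA) forms when the end of a downstream exon is spliced back to the start of an upstream one, and each circRNA is counted by the reads that cross this back-splice junction. Every junction that the deposited circRNA tables assign to the symbol UBE2D1, UBE3A or RNF111 was taken. There were 21 such junctions with reads among 18535 in cattle and 5 among 4737 in buffalo muscle. The 3 genes were chosen by their RPM in the cattle libraries, since they gave the most abundant muscle circRNAs of the ubiquitin system and the circRNA with the largest difference towards adipose tissue in cattle on the log2(RPM + 1) scale. Their levels in cattle muscle and adipose tissue are therefore given as a description, without a test.

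The study compared Xinyang buffalo, labelled low IMF (intramuscular fat), with Nanyang cattle, labelled high IMF, to look for RNAs related to fat deposition in the muscle. The longissimus dorsi muscle of 3 buffaloes (the buffalo muscle group), the same muscle of 3 cattle (cattle muscle) and the subcutaneous back fat of cattle (cattle adipose, 3 libraries) were used. Both cattle tissues came from 3 cattle, and the labels do not say which libraries share an animal. All groups followed the same timetable, with weaning at 3 months, castration at 6, the start of fattening at 18 and slaughter at 30. The buffaloes and the cattle were kept at separate breeding sites, with feed and management that the paper calls equivalent. Species and site therefore differ together. Libraries were made from total RNA of whole tissue with a TruSeq RNA kit and sequenced as paired reads. The paper does not say which RNAs the library step kept, and its part in the circRNA levels was not tested. Since whole tissue was used, a lower level may mean fewer cells of a type or less RNA per cell, and the 2 cannot be told apart.

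Ubiquitin is a small protein that is attached to other proteins in steps, first by an activating enzyme (E1), then by a conjugating enzyme (E2) and finally by a ligase (E3) that chooses the substrate. UBE2D1, also called UbcH5a, is an E2 that works with many ligases. UBE3A, also called E6AP, is the founding member of the HECT ligases, which carry ubiquitin on their own cysteine before passing it on. RNF111, also called Arkadia, is a RING ligase that raises TGF-beta signalling by targeting its repressors SKI, SKIL and SMAD7 for degradation. In muscle, the ubiquitin system is best known for protein breakdown during atrophy.

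The circRNA values are RPM, the reads of a junction scaled to the size of the library. A junction is a single point, so no length enters. Each value was a whole multiple of the value of 1 read, so the reads could be recovered. They summed to between 4472 and 6122 junction reads per library in buffalo muscle, 15440 and 27141 in cattle muscle and 12042 and 21053 in cattle adipose tissue. Single reads were common: they stood behind 33.7% of the circRNAs in the library with the fewest and 61.9% in the library with the most. As circRNA hosts, the defining genes of skeletal muscle were present in cattle muscle, where 21 sarcomere markers summed to between 25.9 and 35.9 RPM, and in buffalo muscle, where they summed to between 11.8 and 13.7 RPM. In cattle adipose tissue they were at 0 in libraries 1 and 3 and at 0.0807 RPM in library 2, where 2 of the 21 had reads. Of 19 adipocyte markers, 4 or 5 had junction reads in each adipose library, and they summed to between 1.00 and 1.59 RPM there against 0.0840 to 0.159 RPM in cattle muscle. By limma, 3 of the 5 sarcomere hosts tested were higher in cattle muscle and 2 of the 3 adipocyte hosts tested, ACACA and PPARG, were higher in adipose tissue. Of all 1837 hosts tested, limma called 2.94% higher in muscle and 0.871% higher in adipose tissue. The defining adipocyte genes ADIPOQ and LEP had no junction read in any of the 9 libraries.

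UBE2D1 gave 1 abundant circRNA in cattle muscle. Its leading junction joins positions 669451 and 673248 of chromosome 26 in the cattle build UMD3.1, on the minus strand, which enclose 3798 bp of the genome. It is assigned to the transcript ENSBTAT00000055368, and the table classes it as exonic. In cattle muscle 1 to 3 it measured 13.3, 32.8 and 27.8 RPM, from 502, 1387 and 992 reads. In cattle adipose tissue 1 to 3 it measured 0.353, 1.99 and 0.386 RPM, from 13, 74 and 15 reads. In buffalo muscle 1 to 3 it measured 0.198, 0.455 and 0.117 RPM, from 13, 29 and 7 reads. All cattle muscle libraries stood above all cattle adipose libraries, and the lowest cattle muscle library was 6.68 times the highest adipose library.

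Within cattle muscle, this circRNA was the first of all circRNAs in libraries 2 and 3 and the second in library 1. It held 3.25% (Wilson 95% interval 2.98% to 3.54%), 5.11% (4.85% to 5.38%) and 4.54% (4.27% to 4.82%) of all junction reads in cattle muscle 1 to 3, together with the other UBE2D1 junction. The intervals given here cover counting error only, since reads without molecular identifiers are not independent molecules. In cattle adipose tissue it ranked 81st, 11th and 91st, and in buffalo muscle 37th, 11th and 63rd. The other UBE2D1 junction, from 665037 to 673248, uses the same upstream end and spans 8212 bp. It had 2 reads, both in cattle muscle 3, so that 99.9% of the UBE2D1 junction reads of cattle muscle and all those of the other groups lay on the leading junction.

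The leading UBE2D1 junction averaged 24.6 ± 10.1 RPM (SD, n = 3) in cattle muscle and 0.909 ± 0.935 RPM (SD, n = 3) in cattle adipose tissue, a ratio of 27.1. Summed over both junctions, the ratio came to 66.7 without adipose library 2. On the log2(RPM + 1) scale, the difference was 3.76 with a standard error of 0.41, and this scale understates the change where levels are low. Adipose library 2, which had the highest UBE2D1 level of the adipose libraries, was also the only one with sarcomere circRNAs. There, UBE2D1 had 74 reads against 3 for all sarcomere circRNAs, a ratio of 24.7 (exact 95% counting interval 8.12 to 122). In cattle muscle 1 to 3, UBE2D1 was 0.513, 0.913 and 0.815 times the sarcomere sum. The source of the UBE2D1 reads in adipose library 2 was not tested.

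UBE3A likewise gave 1 dominant circRNA in cattle muscle, with many rare ones beside it. The leading junction joins positions 2404179 and 2410197 of chromosome 21, on the minus strand, spans 6019 bp and is assigned to the transcript ENSBTAT00000049743. The table classes it as exon_intron, a class that holds 7.77% of the circRNAs of cattle and that the sources used here do not define further. It measured 12.4, 9.01 and 17.5 RPM in cattle muscle 1 to 3, from 469, 381 and 624 reads, and ranked 3rd in every cattle muscle library. In cattle adipose tissue 1 to 3 it measured 0.543, 1.13 and 0.438 RPM, from 20, 42 and 17 reads, and ranked 34th, 33rd and 74th. In buffalo muscle it had 0 reads in all 3 libraries, where a floor of 3 reads over the group corresponds to 0.0158 RPM. The groups did not overlap, and the lowest cattle muscle value was 7.98 times the highest adipose value.

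The leading UBE3A junction averaged 13.0 ± 4.26 RPM (SD, n = 3) in cattle muscle against 0.703 ± 0.373 RPM (SD, n = 3) in cattle adipose tissue, a ratio of 18.4. The difference on the log2(RPM + 1) scale was 3.01 with a standard error of 0.24. The ratio of UBE2D1 to UBE3A reads was not constant among cattle muscle libraries, at 1.07, 3.64 and 1.59 on the leading junctions of libraries 1 to 3. UBE2D1 was highest in cattle muscle 2, the library in which UBE3A was lowest. In adipose tissue the same ratio was 0.650, 1.76 and 0.882, so that UBE2D1 exceeded UBE3A in library 2 alone.

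RNF111 showed the opposite order of tissues at a lower level. Its leading junction joins positions 51344767 and 51345665 of chromosome 10, on the minus strand, and spans 899 bp of the genome. It is assigned to the transcript ENSBTAT00000018858 and is classed as exonic. It measured 1.76, 2.45 and 1.26 RPM in the adipose libraries 1 to 3, from 65, 91 and 49 reads, and ranked 2nd, 5th and 9th among all circRNAs there. In cattle muscle 1 to 3 it measured 0.450, 0.331 and 0.364 RPM, from 17, 14 and 13 reads, and ranked 90th, 227th and 187th. In buffalo muscle it had 0 reads in all 3 libraries. The adipose libraries all stood above the muscle libraries, and the lowest of them was 2.81 times the highest muscle library.

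The mean of the leading RNF111 junction was 1.82 ± 0.595 RPM (SD, n = 3) in cattle adipose tissue and 0.382 ± 0.0612 RPM (SD, n = 3) in cattle muscle, a ratio of 4.78. The difference on the log2(RPM + 1) scale, muscle minus adipose, was -1.01 with a standard error of 0.14. Summed over all its junctions, RNF111 varied little among the cattle muscle libraries, which had 17, 18 and 17 reads, whereas the adipose libraries had 67, 96 and 56. In adipose tissue, UBE2D1 reads were 0.200, 0.813 and 0.306 times those of RNF111 on the leading junctions, and in cattle muscle they were 29.5, 99.1 and 76.3 times as many.

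**Figure D1:**
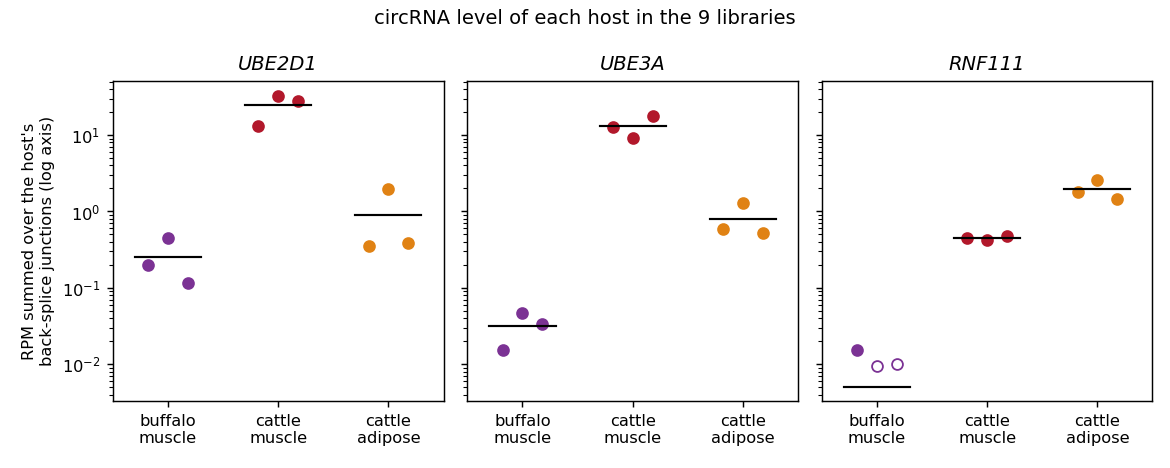
Level of UBE2D1, UBE3A and RNF111 circRNAs in each of 9 libraries, as RPM summed over the junctions of each gene on a log axis. Filled points are libraries, lines are the means of 3 libraries, and open points mark libraries with 0 reads, drawn below the value of 1 read. Cattle muscle is highest for UBE2D1 (24.6 RPM on average) and UBE3A (13.1 RPM), and cattle adipose tissue is highest for RNF111 (1.95 RPM).

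Across the 1917 circRNAs with at least 2 reads in at least 3 of the 6 cattle libraries, limma called 59 higher in muscle (3.08% of those tested) and 3 higher in adipose tissue (0.156%) at a Benjamini-Hochberg adjusted p of 0.05. Of the 21 member junctions, 4 were abundant enough to be tested, namely the 3 leading junctions and 1 further RNF111 junction. Since this contrast chose the genes, no call is read from it for them. Groups that did not overlap were common, as 15.3% of the circRNAs tested had all muscle libraries above all adipose libraries and 7.93% had the reverse. By size of difference on the log2(RPM + 1) scale, UBE2D1 and UBE3A stood 2nd and 3rd towards muscle, between the leading junctions of NEB, which encodes the giant thin filament protein nebulin (4.23 with a standard error of 0.11), and of LMO7 (2.91 with a standard error of 0.14). RNF111 stood first towards adipose tissue, ahead of MED17 (-0.78 with a standard error of 0.17). This order depends on the scale, as UBE2D1, UBE3A and RNF111 stood 5th, 7th and 3rd with a pseudocount of 0.1 and 96th, 129th and 89th by the fold changes of edgeR with TMM. The median difference of all circRNAs tested was 0.01.

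**Figure D2:**
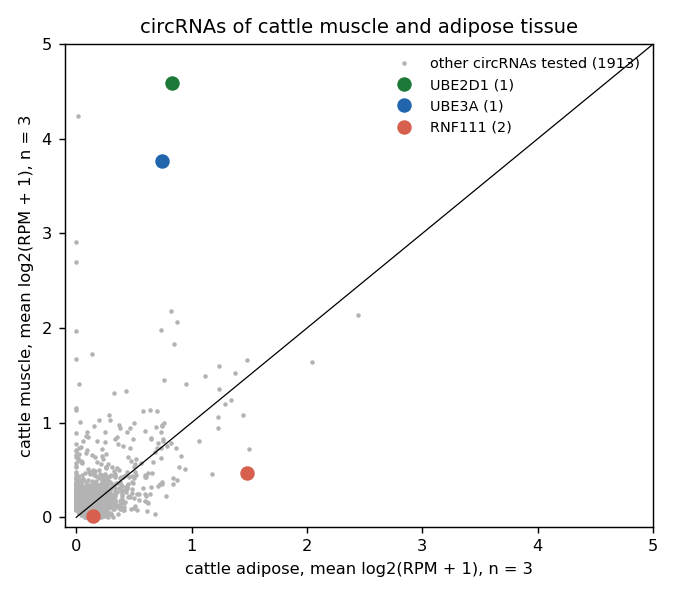
Mean log2(RPM + 1) of 1917 circRNAs in cattle muscle (vertical axis) against cattle adipose tissue (horizontal axis), 3 libraries each, with the line of equal level. The UBE2D1 and UBE3A junctions lie far above the line, the leading RNF111 junction lies below it, and the second RNF111 junction sits near the origin.

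By profile over the 6 cattle libraries, the hosts closest to UBE2D1 were MYBPC1, which encodes a myosin-binding protein of the sarcomere, NEB and LMO7, which encodes a LIM domain protein, with root mean square differences of 0.51, 0.53 and 0.64 on the log2 scale. The hosts closest to UBE3A were MYBPC1, the myosin light chain gene MYL1 and LMO7, at 0.35, 0.39 and 0.46. Among these, MYBPC1 and MYL1 were at 0 in all 3 adipose libraries, NEB had a mean of 0.00896 RPM there and LMO7 measured 0.0543, 0.0807 and 0.206 RPM in libraries 1 to 3, whereas UBE2D1 and UBE3A had 102 and 90 junction reads in adipose tissue. MYBPC1 measured 9.50 ± 1.91 RPM and NEB 19.4 ± 3.42 RPM in cattle muscle (SD, n = 3 each), so UBE2D1 was of the order of the NEB circRNAs. The hosts closest to RNF111 were the neurotrophin receptor gene NTRK2, ACACA, which encodes acetyl-CoA carboxylase of fatty acid synthesis, and TPST1, all at 0.21. ACACA circRNAs measured 0.594 ± 0.166 RPM in adipose tissue and 0.0158 ± 0.0273 RPM in muscle (SD, n = 3 each). The likeness is over the same 6 libraries that chose the genes, which differ in tissue and depth, and it is a description.

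The 3 hosts together took 6.45%, 6.60% and 7.49% of all junction reads in cattle muscle 1 to 3. They took 0.847%, 1.04% and 0.643% in the adipose libraries 1 to 3, and 0.283%, 0.523% and 0.201% in buffalo muscle 1 to 3. In cattle muscle, this share came almost wholly from the pair of leading junctions of UBE2D1 and UBE3A.

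The 3 genes differed in how many junctions they used. In cattle, UBE2D1 had 2 junctions with 2985 reads, UBE3A had 15 with 1581 reads and RNF111 had 4 with 271 reads. Of the 21 junctions, 11 were seen in a single library and 3, the leading ones, in all 6. Of the 15 UBE3A junctions, 14 had fewer than 10 reads in all. Of the UBE3A junctions, 3 were seen in both cattle tissues, 6 in muscle alone and 6 in adipose tissue alone, and the latter 2 groups rest on few reads each.

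Most UBE3A reads of cattle used 1 upstream end. Position 2410197 is the upstream end of the leading junction and of 3 further cattle junctions, and these 4 are all the UBE3A junctions of the class exon_intron. They held 476, 381 and 627 reads in cattle muscle 1 to 3 and 20, 43 and 17 in the adipose libraries 1 to 3, so that this end carried 99.5% of UBE3A reads in cattle muscle and 88.9% in adipose tissue. The 11 junctions of the class exon spanned between 1247 and 47617 bp and held 17 reads. These were 1, 4 and 2 reads in cattle muscle 1 to 3 and 2, 5 and 3 in the adipose libraries 1 to 3. Without the leading junction, the 3 other junctions at 2410197 held 7, 0 and 3 reads in muscle libraries 1 to 3 and 0, 1 and 0 in adipose libraries 1 to 3. Both these and the exonic junctions overlapped between the tissues. The rarer UBE3A junctions rest on few reads, and a difference in them between tissues was not tested.

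The leading junction held 98.3%, 99.0% and 99.2% of the UBE3A reads of cattle muscle 1 to 3, with Wilson 95% intervals whose lowest bound was 96.7%. In cattle adipose tissue 1 to 3 it held 90.9% (72.2% to 97.5%), 87.5% (75.3% to 94.1%) and 85.0% (64.0% to 94.8%). The leading junctions chose the genes by their level in these cattle libraries, so their shares are given as a description, without a test. The leading RNF111 junction held 100%, 77.8% and 76.5% of the RNF111 reads of cattle muscle 1 to 3. It held 97.0%, 94.8% and 87.5% of those of adipose tissue 1 to 3, and the RNF111 shares of the tissues overlapped.

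The distance between the ends of a junction, averaged over the reads of a host, depends on which of its junctions were used. The leading junctions that chose the genes supply most of these reads, so the mean span is given as a description, without a test. For UBE3A this mean span was 6482, 6067 and 6411 bp in cattle muscle 1 to 3 and 6544, 8252 and 7248 bp in the adipose libraries 1 to 3. It was shorter in all 3 muscle libraries than in any adipose library, with means of 6320 ± 222 bp against 7348 ± 858 bp (SD, n = 3 each; muscle minus adipose -1028 bp). The difference was -576 bp without adipose library 2 and -225 bp when junctions with fewer than 3 reads were left out. By the median span over reads, the difference was 0 bp for UBE3A and for RNF111. For RNF111 the mean span was 1895 ± 918 bp in muscle and 2566 ± 1437 bp in adipose tissue (SD, n = 3 each), and without adipose library 3 the muscle mean exceeded the adipose mean by 158 bp. For UBE2D1 it was 3801 bp in muscle and 3798 bp in adipose tissue.

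**Figure D3:**
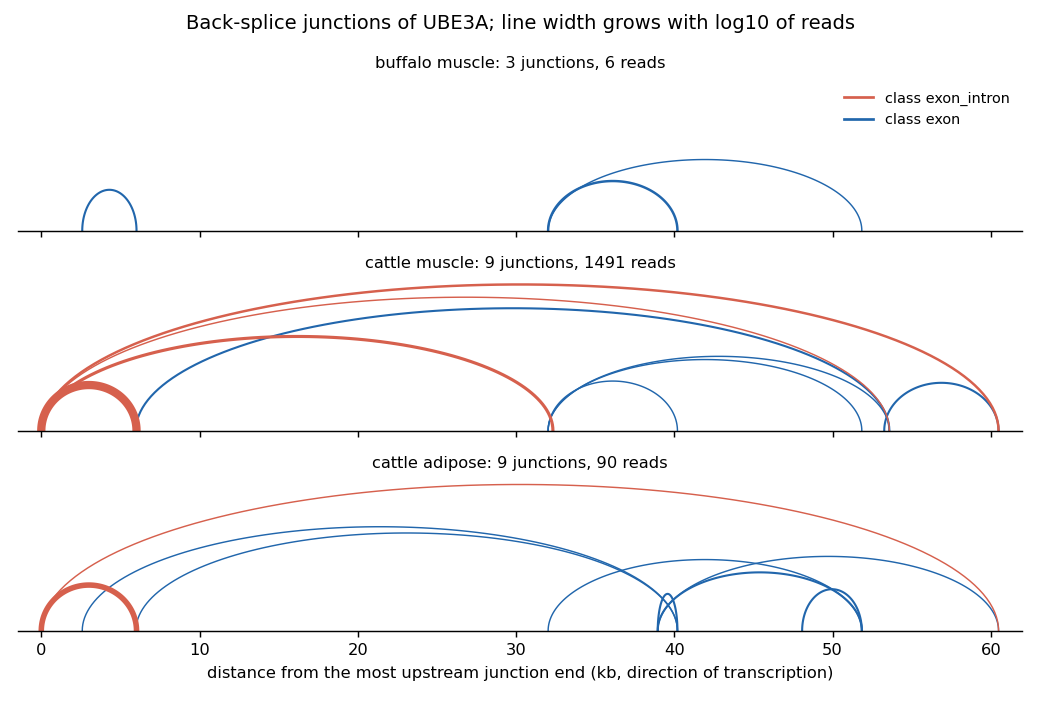
Back-splice junctions of UBE3A in buffalo muscle (3 junctions, 6 reads), cattle muscle (9 junctions, 1491 reads) and cattle adipose tissue (9 junctions, 90 reads), pooled over 3 libraries each. Each arc joins the ends of a junction, placed by distance in kb from the most upstream end in the direction of transcription; line width grows with the log10 of the reads, colour gives the class of the table and arc height only separates the arcs. In cattle the widest arc starts at the most upstream end, where buffalo muscle has no arc.

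The second RNF111 junction with 10 or more reads joins 51318162 and 51345665 and spans 27504 bp, sharing its upstream end with the leading one. It had 0, 0 and 1 reads in cattle muscle 1 to 3 and 2, 3 and 7 in the adipose libraries 1 to 3. Its difference on the log2(RPM + 1) scale was -0.13 with a standard error of 0.06, in the same direction as the leading junction. It passed the filter on low values through the adipose libraries alone. A further RNF111 junction, from 51318162 to 51324364 (6203 bp), had 0, 4 and 1 reads in cattle muscle 1 to 3 and 0, 1 and 0 in adipose tissue 1 to 3, and thus did not show this order. The shortest, from 51310806 to 51311125 (320 bp), had 2 reads in cattle muscle 3 and 1 in adipose tissue 2.

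Reads of both species had been aligned to the cattle genome, so the buffalo junctions carry the same coordinates, but the tables of the 2 species were made separately and no test was made between them. With identical ends, 4 junctions had reads in both buffalo muscle and cattle, which is 80.0% of the 5 in buffalo muscle and 19.0% of the 21 in cattle. Allowing 5 bp at each end gave the same 4. They were the leading UBE2D1 junction, UBE3A junctions from 2369998 to 2378170 (8173 bp) and from 2358347 to 2378170 (19824 bp), and the RNF111 junction from 51318162 to 51324364. In buffalo muscle 1 to 3, the UBE3A junction of 8173 bp had 1, 2 and 0 reads, that of 19824 bp had 1 read over the 3 libraries and the RNF111 junction had 1 read, in library 1. In cattle the same UBE3A junctions were among those with fewer than 10 reads. The leading UBE2D1 junction was thus also the one UBE2D1 junction seen in buffalo muscle, while the junctions that led UBE3A and RNF111 in cattle had no read there. For buffalo, 9 junctions of the 3 genes are listed, some with ends used in cattle but without a read in buffalo muscle. The leading RNF111 junction is among these, whereas the leading UBE3A junction is not listed for buffalo.

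The fifth junction with reads in buffalo muscle lies at the position of the leading UBE3A circRNA of cattle. It joins the same downstream position, 2404179, to 2407609, an upstream position 2588 bp short of the one used in cattle, spans 3431 bp and is classed as exonic. It had 2 reads, both in buffalo muscle 3, and none in cattle, where 2407609 occurred in a single adipose read as the end of another junction. No buffalo muscle read used 2410197, out of 6 UBE3A reads in all.

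In RPM, UBE2D1 circRNA was 24.6 ± 10.2 in cattle muscle and 0.257 ± 0.177 in buffalo muscle (SD, n = 3 each), a ratio of 96.1, which was 157 without buffalo library 2. Summed over all circRNAs, cattle muscle itself had 6.63 times the RPM of buffalo muscle, so the share of junction reads was set beside the RPM. By share, UBE2D1 made up 4.30 ± 0.952% of the junction reads in cattle muscle and 0.292 ± 0.164% in buffalo muscle (SD, n = 3 each), a ratio of 14.7. UBE3A circRNAs, all junctions summed, were 13.1 ± 4.27 RPM in cattle muscle and 0.0319 ± 0.0160 RPM in buffalo muscle (SD, n = 3 each), a ratio of 411 by RPM and 65.5 by share. Both rest on 6 buffalo reads, with exact 95% counting intervals of 186 to 1110 for the pooled ratio of 407 by RPM and 28.1 to 167 for that of 61.2 by share. The leading UBE3A junction, at 0 in buffalo muscle, was at least 819-fold higher in cattle muscle by RPM and at least 129-fold higher by share, taking 3 reads over the buffalo group as the floor. For RNF111, the 52 reads of cattle muscle against 1 of buffalo muscle gave a ratio of 85.1 by RPM (exact 95% counting interval 14.6 to 3425) and 12.8 by share (2.2 to 516). Its leading junction was at least 24.1-fold higher by RPM and at least 3.90-fold higher by share. For comparison, the sarcomere hosts summed to 11.8 to 13.7 RPM in buffalo muscle, and there UBE2D1 circRNA was 0.0168, 0.0331 and 0.00950 times that sum in libraries 1 to 3. The RPM of circRNAs depends on how each table was made, and whether alignment of buffalo reads to a cattle genome has a part in these ratios was not tested.

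The linear transcripts of all 3 genes were present in buffalo muscle, the group with mRNA values here. These are FPKM, fragments scaled by transcript length and library size, so that genes can be compared. UBE3A was the highest, with 71.8, 66.2 and 58.2 FPKM in libraries 1 to 3 (65.4 ± 6.79, SD, n = 3), rank 1215 of 19917 transcripts. UBE2D1 followed with 30.2, 24.8 and 23.0 FPKM (26.0 ± 3.77, SD, n = 3), rank 2796. RNF111 was the lowest with 7.65, 7.66 and 7.01 FPKM (7.44 ± 0.369, SD, n = 3), rank 6911. None of the 3 overlapped with another.

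The order of the transcripts was not the order of the circRNAs. UBE2D1 had 49 circRNA reads in buffalo muscle against 6 for UBE3A, although the UBE3A transcript was higher in each library. Set against the transcript, UBE2D1 gave 0.00987 RPM of circRNA per FPKM, UBE3A 0.000487 and RNF111 0.000681, the last from a single read. Such ratios are limited by the FPKM paired with a name, as NEB was at 0 FPKM in buffalo muscle beside 2074 circRNA reads. Among the HECT ligases, UBE3A stood below WWP1 (202 FPKM) and TRIP12 (76.8 FPKM) and above UBE3C (40.3 FPKM). UBE2D1 stood below the other named member of its family, UBE2D3, at 56.3 FPKM, and RNF111 was 19th of 29 genes with an RNF symbol.

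**Figure D4:**
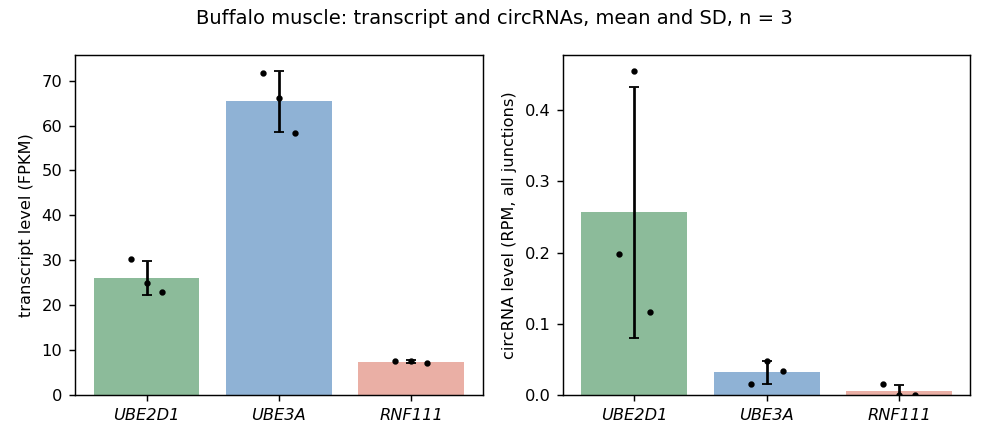
Transcript level in FPKM (left) and summed circRNA level in RPM (right) of UBE2D1, UBE3A and RNF111 in buffalo muscle. Bars are means, error bars are SD and dots are the 3 libraries. UBE3A has the highest transcript level (65.4 FPKM), and UBE2D1 has the highest circRNA level (0.257 RPM).

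The rest of the ubiquitin system was then examined at the level of circRNA hosts, with all junctions of a gene summed. Of 1837 hosts tested with limma, 54 were higher in cattle muscle (2.94%) and 16 higher in adipose tissue (0.871%) at an adjusted p of 0.05. The median difference of all hosts was 0.00. Leaving out the 3 genes, none of the 3 E1 hosts, the 1 further UBE2D host, the 2 further E2 hosts, the 16 further HECT hosts or the 6 further RNF hosts was called higher in muscle by limma, and 1 HECT host was called higher in adipose tissue. At an unadjusted p of 0.05, limma gave 2 HECT hosts higher in muscle and 2 higher in adipose tissue, and 1 UBE2D host higher in adipose tissue, against 0 in the E1, further E2 and RNF lists. Of all 1837 hosts, 9.85% were higher in muscle and 5.82% higher in adipose tissue at this unadjusted threshold. By edgeR with TMM, 1 HECT host was called higher in muscle and 1 UBE2D host higher in adipose tissue, and DESeq2 called 1 HECT host higher in muscle. Over all hosts, edgeR with TMM called 6.70% higher in muscle and 2.12% higher in adipose tissue, and DESeq2 called 5.55% and 1.74%. The median difference was -0.04 for the E1 hosts, 0.06 for the further E2 hosts, 0.04 for the HECT hosts and -0.03 for the RNF hosts.

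UBE2D3, the closest relative of UBE2D1 among the hosts, lay on the other side. Its circRNAs measured 0.0794, 0.426 and 0.308 RPM in cattle muscle 1 to 3 and 0.489, 1.18 and 0.670 RPM in the adipose libraries 1 to 3. All adipose libraries were above all muscle libraries, as for 8.27% of hosts. The difference of -0.48 (standard error 0.16) did not pass limma (adjusted p = 0.21), with a range of adjusted p from 0.034 to 0.48 over the alternatives. It passed in limma with the replicate number as a block (adjusted p = 0.034) and in edgeR with TMM (adjusted p = 0.046). Thus UBE2D1 differed by 3.76 towards muscle and UBE2D3 by 0.48 in the other direction, although the difference between the 2 genes was not tested.

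Among the HECT ligases, HERC6, an interferon-induced ligase, was higher in adipose tissue. It measured 0.265, 0.142 and 0.252 RPM in cattle muscle 1 to 3 and 0.597, 0.538 and 0.644 RPM in adipose tissue 1 to 3, a difference of -0.39 (standard error 0.06, limma adjusted p = 0.026). The call was lost under 8 of 13 alternatives, with edgeR and DESeq2 among them. UBE3C, a proteasome-associated HECT ligase, had the largest difference towards muscle among the further HECT hosts, with 1.67, 2.41 and 2.77 RPM in muscle 1 to 3 and 0.597, 1.72 and 0.541 RPM in adipose tissue 1 to 3. Its difference of 0.79 (standard error 0.24) did not pass limma (adjusted p = 0.15) and passed edgeR with TMM (adjusted p = 0.0096) and DESeq2 (adjusted p = 0.0082) but not edgeR without TMM (adjusted p = 0.18), and adipose library 2 overlapped with muscle. TRIP12, a further HECT ligase, measured 1.30 ± 0.314 RPM in muscle and 1.15 ± 0.467 RPM in adipose tissue (SD, n = 3 each). UBA6, the E1 with the most junction reads, measured 0.336 ± 0.0315 and 0.399 ± 0.247 RPM, and RNF216 measured 0.513 ± 0.116 and 0.400 ± 0.147 RPM. BIRC6, a giant E2 that blocks cell death, was at 0.493 ± 0.175 and 0.468 ± 0.178 RPM. None of these 4 passed limma (adjusted p = 0.82, 0.87, 0.68 and 0.95).

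The ligases known for muscle atrophy gave hardly any circRNA. TRIM63 (MuRF1) measured 0.0794, 0 and 0.112 RPM and FBXO32 (atrogin-1) 0.106, 0.0473 and 0 RPM in cattle muscle 1 to 3. In cattle adipose tissue TRIM63 had no read and FBXO32 measured 0.0269 RPM in library 2 alone. No host of this list was abundant enough to be tested, and these were the 2 hosts of 8 genes with reads in cattle.

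RNF111 was set beside the TGF-beta pathway that it acts on. Of the 27 genes in the list, 18 had junction reads in cattle and 11 hosts were tested, of which limma called 0 in either direction, with 2 higher in muscle and 0 higher in adipose tissue at an unadjusted p of 0.05, where all hosts gave 9.85% and 5.82%. By edgeR with TMM, 1 of the 11 was called higher in muscle, beside 6.70% of all hosts, and by DESeq2 none. The host called was BMPR2, a type II receptor of bone morphogenetic proteins, with 0.185, 0.284 and 0.560 RPM in muscle libraries 1 to 3 and 0, 0.161 and 0 RPM in adipose libraries 1 to 3. Its difference of 0.34 (standard error 0.12) did not pass limma (adjusted p = 0.21) and passed edgeR with TMM (adjusted p = 0.017), with adjusted p from 0.017 to 0.43 over the alternatives. The median difference of the 11 hosts was 0.09. BMPR1A, a receptor of bone morphogenetic proteins, had the highest summed level in muscle at 0.418 ± 0.202 RPM against 0.125 ± 0.148 RPM in adipose tissue (SD, n = 3 each; difference 0.33, standard error 0.13, limma adjusted p = 0.29). LTBP1, which anchors latent TGF-beta in the matrix, was highest in adipose tissue at 0.464 ± 0.222 RPM against 0.415 ± 0.157 RPM in muscle (SD, n = 3 each; limma adjusted p = 0.90).

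**Figure D5:**
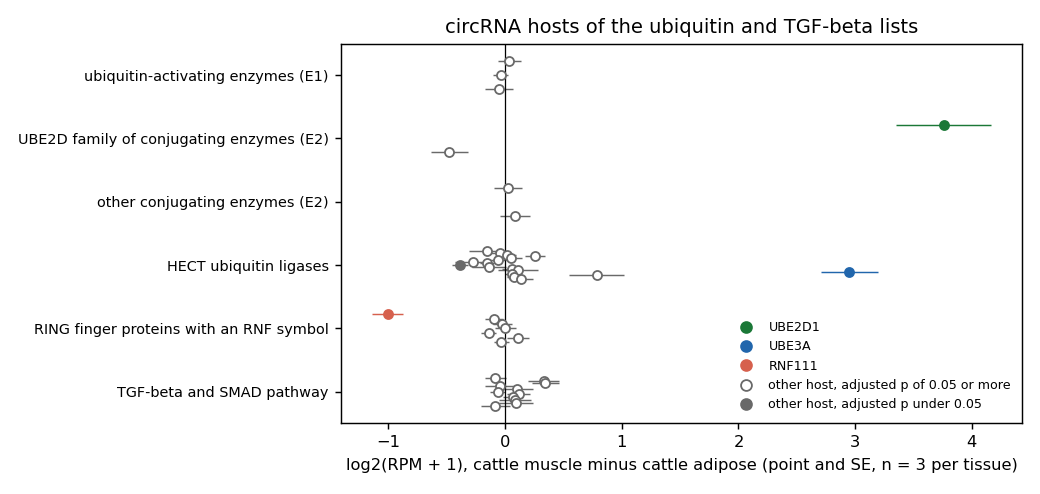
Difference in log2(RPM + 1) between cattle muscle and cattle adipose tissue for each tested circRNA host of 6 gene lists; points right of 0 are higher in muscle, bars are standard errors and 3 libraries stand behind each tissue. UBE2D1 (3.76) and UBE3A (2.95) lie far right of the other hosts and RNF111 lies to their left.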

How the data were processed

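The 9 libraries (3 per group) were grouped by the sample labels into muscle of buffalo, muscle of cattle and adipose tissue of cattle. The authors trimmed reads with Trim Galore, aligned both species to UMD3.1 with STAR and used Cufflinks 2.2.1 and Cuffdiff. The deposited mRNA table gives FPKM per transcript, without depth. For circRNAs the deposited values are RPM of each junction, and the circRNA caller is not given in the sources used here. A further 9 columns, of buffalo adipose tissue, and the lncRNA table were not used.

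In each circRNA library, 100% of values above 0 were whole multiples of 1 step (tolerance 0.01), which was taken as 1 read. Library totals derived from it ranged from 35712276 to 65777231. circRNAs and hosts with at least 2 reads in at least 3 of 6 cattle libraries were fitted with limma 3.58.1 on log2(RPM + 1), with Benjamini-Hochberg adjustment. Where no adjusted p under 0.05 was found, a difference was not called. The exact permutation test planned for the mean spans is not given, since the reads that chose the genes enter it. Alternatives were a pseudocount of 0.1, other filters, a replicate block, edgeR 4.0.16 and DESeq2 1.42.0 on recovered reads, and leaving out each library. The fit was tested on simulated data. p-values measure the spread between these libraries, and the labels do not pair muscle with adipose libraries by animal.

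Junctions were named with values where they had at least 10 reads in cattle or 3 in buffalo muscle, or had reads in both buffalo muscle and cattle. Named beyond this rule were the other UBE2D1 junction, the shortest RNF111 junction and the fifth buffalo junction, chosen after their values were seen. From each gene list, hosts called and the host with the highest RPM in each tissue were named, and UBE2D3, TRIM63 and FBXO32 fall under this rule. BMPR2 was named for its edgeR call. Members and lists were chosen with earlier results of these data known. Names were paired with 6807 of 19917 transcripts. Coordinates are 1-based in UMD3.1 as the tables give them.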

Additional observations from a re-analysis of the deposited data

How the results depend on the processing

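The direction of the member differences was fixed by the choice of the genes, and their size moved with the scale. On the log2 scale, the leading junction differed by 3.51 to 4.90 for UBE2D1, 2.79 to 4.30 for UBE3A and -2.25 to -0.86 for RNF111, and the smaller pseudocount and the read-based tools gave the larger sizes. The count of circRNAs called higher in muscle and in adipose tissue, 59 and 3 with limma, became 106 and 17 with a pseudocount of 0.1, 34 and 2 without a filter, 69 and 8 with at least 5 reads, 137 and 26 with edgeR and TMM, 102 and 11 with edgeR without TMM, and 111 and 18 with DESeq2, where 706 adjusted p-values were not given. Leaving out 1 library gave 21 to 68 and 1 to 4, with the fewest without adipose library 3 and muscle library 3. The count of hosts, 54 and 16, became 96 and 30 with the pseudocount, 25 and 10 without a filter, 123 and 39 with edgeR and TMM, 91 and 28 without TMM, and 102 and 32 with DESeq2. Leaving out 1 library gave 13 to 57 and 2 to 9 hosts. The median difference of all circRNAs was 0.12 with edgeR and TMM, 0.13 without TMM and 0.15 with DESeq2. Same-numbered muscle and adipose libraries deviated together in 2 of 3 numbers (r over circRNAs 0.24, 0.17 and -0.02), so the numbers were not taken to pair the libraries. With the replicate number as a block, 71 and 15 circRNAs and 53 and 16 hosts were called, and UBE2D3 passed (limma adjusted p = 0.034). By share of junction reads in place of RPM, the ratio of cattle to buffalo muscle was 14.7 for UBE2D1 and 65.5 for UBE3A. The RNF111 transcript was at 2.91 in place of 3.08 on the log2 scale with a pseudocount of 0.1. The difference in mean span of UBE3A ranged from -1430 to -576 bp and that of RNF111 from -1107 to 158 bp when 1 library was left out, and the latter changed sign without adipose library 3. Hosts near 0 changed sign when 1 library was left out, with BIRC6 (0.02) at -0.0755 to 0.0986, LTBP1 (-0.04) at -0.147 to 0.0702, TRIP12 (0.11) at -0.0572 to 0.262 and UBA6 (-0.05) at -0.161 to 0.0845. BIRC6 did so without muscle library 2 or adipose library 1, LTBP1 without muscle library 1 or adipose library 2, TRIP12 without adipose library 1 and UBA6 without adipose library 2. UBE3C passed limma without adipose library 2 (adjusted p = 0.024). The causes were not tested. Of the 21 member junctions in cattle, 11 were seen in 1 library, and in buffalo muscle the 3 genes had 56 junction reads in all, so the values of these junctions rest on few reads.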
